A study of Mus musculus with 4 samples.

Results

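This report describes 42 genes for proteins of the cytosolic ribosome in sections of the mouse ovary. The genes were taken by symbol from the deposited tables: 17 for the small subunit (Rps) and 25 for the large subunit (Rpl). All 42 had a row among the 32285 genes, and 38 other cytosolic ribosomal protein genes served as the nearest set for comparison. Frozen ovaries of outbred CD-1 females were cut and read with the 10x Genomics Visium assay, which captures mRNA on spots of known position. Each of 4 capture areas held 1 section of a young ovary (3 to 4 months) and 1 of an aged ovary (15 to 16 months), from 4 animals per age. Neither group carried a transgene or received a treatment, and females were aged naturally. A spot is a small region that can hold several cells of different types, so that spots are called by the marker genes in them and not as cells. Every value below is a count of unique molecular identifiers (UMIs, counted RNA molecules), a share of them, or CPM (counts scaled to a fixed total) of the UMIs summed over a section or over chosen spots.

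The ribosome is built from ribosomal RNA and about equal copies of its proteins, and cells that grow or divide make more of it. The messages of its proteins begin with a C and a run of pyrimidines, the terminal oligopyrimidine (TOP) tract, through which mTORC1 signalling and the protein Larp1 set their translation together. In the ovary, granulosa cells of growing follicles divide quickly, the surface epithelium repairs the ovary wall after ovulation, and luteal cells of the corpus luteum are large, steroid-producing cells that no longer divide.

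The start sites are shown because the shared TOP tract is what ties these messages together. The RefSeq promoter table (GRCm38.p6) held 34 of the 42 genes. A start that is a C followed by 4 pyrimidines was found in 8 of the 34 (23.53%), against 813 of 27025 genes in the table (3.01%), 24% of 25 other cytosolic ribosomal protein genes with an entry, and 0 of 17 genes of the mitochondrial ribosome. With the start allowed to lie up to 3 bases away, the shares were 38.24% of the members, 44% of the other cytosolic ribosomal protein genes, 17.65% of the mitochondrial ribosome genes and 13.51% of all genes, a smaller contrast. The 8 windows, and that of Rpl4, which moved differently from most members, run from 20 bases before to 10 bases from the annotated start, and capitals mark the unbroken pyrimidine run that holds the start base.
Rps27, the gene with the widest range over the tissue, chr3:90213639-90213668, minus strand: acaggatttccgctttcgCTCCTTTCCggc
Rps6, the substrate of the S6 kinases, chr4:86857358-86857387, minus strand: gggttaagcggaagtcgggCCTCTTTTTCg
Rps18, chr17:33955656-33955685, minus strand: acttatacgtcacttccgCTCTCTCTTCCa
Rplp2, a protein of the stalk, chr7:141447631-141447660, plus strand: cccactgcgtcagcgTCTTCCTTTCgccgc
Rpl14, chr9:120571497-120571526, plus strand: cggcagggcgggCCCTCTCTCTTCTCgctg
Rpl15, chr14:18270977-18271006, minus strand: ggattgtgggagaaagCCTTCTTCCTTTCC
Rpl28, chr7:4792945-4792974, plus strand: tcgtcccgcctctcgtgTCTCTCTTTCCgt
Rpl38, chr11:114668560-114668589, plus strand: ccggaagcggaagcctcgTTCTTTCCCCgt
Rpl4, chr9:64173367-64173396, plus strand: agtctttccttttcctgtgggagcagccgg
The annotated start of Rpl4 is a G, and a pyrimidine run lies upstream of it within the window. Annotated starts can be off by a few bases, and a match is a description of the letters only. Over the 300-base promoters, CCGGAAG, a core of ETS-family sites, was present on either strand in 38.24% of the 34 members and 9.93% of all genes. It was as frequent in the other cytosolic ribosomal protein genes (44%) and the mitochondrial ribosome genes (41.18%), and so is not particular to the members. CTCTTTCC was in 20.59% of the members and 3.57% of all genes, CTTTTCC in 23.53 and 9.3%, and the TATA box letters TATAAA in 11.76 and 15.67%. In the other cytosolic ribosomal protein genes these were in 12, 8 and 8%, so that CTTTTCC was no more frequent there than in all genes. In the mitochondrial ribosome genes they were in 0, 5.88 and 0%.

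The sections held 2777948 to 21619232 UMIs, and the medians per spot ranged from 14988.5 to 28120 in young and from 8779 to 14927.5 in aged sections. The aged sections were thus shallower, and the mitochondrial share was higher in them, at 2.05 ± 0.826% (SD, n = 4) against 1.14 ± 0.540%. Marker genes of oocytes ran against the age labels in capture area 3, with 34.2 CPM in young section 3 and 421 in aged section 3, whereas in the other areas young sections had 165 to 514 and aged ones 29.4 to 36.9. Some other measures in area 3 had the same direction as in the other areas. The aged section had the higher mitochondrial share (2.96 against 1.10%), the lower median UMIs (8779 against 14988.5) and fewer endothelial marker counts (416 against 784 CPM). Macrophage, B and plasma cell, and erythrocyte markers ran the other way, being higher in the aged section of areas 1, 2 and 4 only. In area 3 they had 261, 60.1 and 33.1 CPM in the aged section against 809, 591 and 62.7 in the young one. Whether the ages were exchanged there was not tested. Age results over whole sections are therefore also given without area 3, and those within marker-high spots were not refitted without it.

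Together the 42 genes took up a large part of the RNA. Their share of all UMIs was 10.2, 10.4, 5.72 and 8.21% in young sections 1 to 4 and 9.18, 9.05, 8.65 and 6.20% in aged sections 1 to 4. The lowest value was in young section 3 and the next in aged section 4, and the ages overlapped. All cytosolic ribosomal protein genes together made up 10.4 to 18.7%. Members differed widely in counts: 39 had a mean of at least 1 UMI per spot, whereas Rps18 (0.580), Rps2 (0.508) and Rpl10 (0.308) did not. These 3 have near-identical copies elsewhere in the genome. How reads that match several copies were counted was not examined, so that the values of these genes are uncertain. The same holds for Rps27, which has the near-identical gene Rps27rt.

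Within a section the share varied far more between spots than counting error gives, and it formed continuous territories. In young section 2, the deepest, the middle 90% of spots ran from 6.88 to 14.7%, with an SD of 2.38 percentage points where counting alone gives 0.198. Across the 8 sections the SD was 1.73 to 2.93 points and the counting SD 0.198 to 0.372. A spot's share followed the mean of its neighbours, with Spearman's rho of 0.872 to 0.950 within sections. Neighbouring spots share cells and stray RNA, and these correlations over 254 to 762 spots describe the sections without a test.

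**Figure D1:**
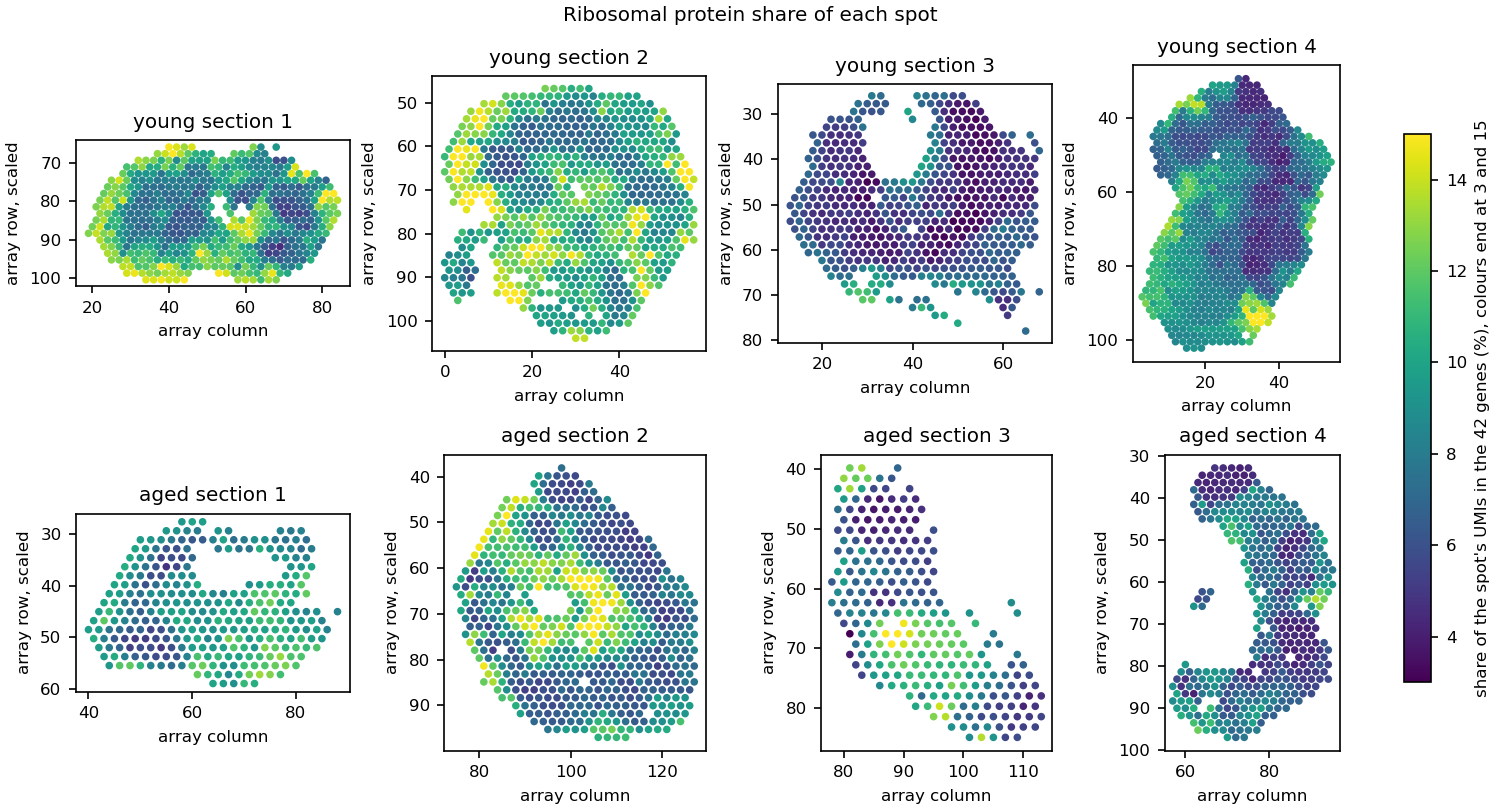
Each point is a spot at its array column (x axis) and array row, scaled to true proportions (y axis), coloured by the share of its UMIs in the 42 genes (%), with 1 panel per section. High and low spots lie in patches: rims and round patches are bright in several sections, young section 3 is dark throughout (5.72% over the section), and young sections 1 and 2 are brighter (10.2 and 10.4%).

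To ask which parts of the ovary hold more of these messages, spots were ranked in each section by lists of marker genes that contain no ribosomal protein gene. The top 10% with at least 5 marker UMIs were compared with the rest of the same section. Of 13 lists, 10 gave at least 10 such spots in at least 3 sections per age. Because each section is compared with itself, these results do not depend on the age labels.

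The messages of the ribosome were lowest where corpus luteum genes were highest. In corpus luteum-high spots the 42 genes took 6.69, 9.05, 5.11 and 5.02% of UMIs in young sections 1 to 4, against 10.8, 10.6, 5.85 and 8.64% in the rest. In aged sections 1 to 4 the values were 8.51, 5.99, 5.58 and 4.57% against 9.32, 9.59, 9.19 and 6.58%. The share was lower in 8 of 8 sections, by a mean of -2.50 ± 1.37 percentage points (SD, n = 8). The 7 marker genes themselves took up to 3.59% of UMIs in these spots, and leaving them out of the total kept the share between 4.67 and 9.14%. Corpus luteum-high spots were also deeper in 8 of 8 sections, with 1.30 to 2.47 times the median UMIs of the rest, and the part of depth in the result was not tested.

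By gene, 20 of the 42 fell and 0 rose (edgeR quasi-likelihood test, Benjamini-Hochberg adjusted p under 0.05), where 14.8% of all 13138 genes tested fell and 29.2% changed in either direction. All 42 fold changes were negative, with a median of -0.37 on the log2 scale, against -0.01 for all genes. The falls were spread over both subunits, with 9 of 17 small-subunit and 11 of 25 large-subunit genes. Rps27 (chromosome 3, 90212522 to 90213651, minus strand), a zinc-binding protein of the small subunit, had 510, 318, 244 and 97.3 CPM in corpus luteum-high spots of young sections 1 to 4 and 499, 274, 296 and 93.2 in those of aged sections. The rest of the sections had 537, 451, 387 and 186 CPM in young and 706, 524, 621 and 141 in aged ones. Corpus luteum-high spots were lower within every section, although the sections differ so much that the ranges overlap, and Rps27 fell by 0.51 ± 0.13 (log2, SE; adjusted p = 0.00894, edgeR). Rpl32 (chromosome 6, 115805505 to 115808747, minus strand), of the large subunit, was 1728 ± 608 CPM against 2668 ± 700 in the rest (SD, n = 8) and fell by 0.51 ± 0.14 (adjusted p = 0.0179, edgeR). The other named falls were those of Rpl13 by 0.47, Rps16 by 0.46, Rps15 by 0.45 and Rps12 by 0.44, each lower in 8 of 8 sections. All 6 stayed past the threshold with any section left out. The number of members that fell depended on single sections: it was 10 without aged section 2 or young section 4, and 12 without aged section 4. Scaling by library size alone shifted the median of all genes to -0.16, gave 1019 higher and 3088 lower genes in place of 1892 and 1941, and let 41 members fall.

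The machinery that makes ribosomes was lower there too, and mitochondrial ribosome genes were not. Of 20 genes for ribosome biogenesis 7 fell and 0 rose, among them the nucleolar proteins Npm1 (-0.43), Fbl (-0.34), Nop56 (-0.49) and Dkc1 (-0.46). Of 18 translation factors 5 fell, led by Eef1d at -0.40 and Eef1g at -0.39, subunits of the elongation factor eEF1B. Of the 38 other cytosolic ribosomal protein genes 15 fell, with a median of -0.32. By contrast, 6 of 20 genes of the mitochondrial ribosome rose and 0 fell, with Mrpl51 at 0.64 and Mrpl33 at 0.57. The background for a rise was 14.4% of all genes.

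Spots rich in surface epithelium genes had a higher share than the rest, by a mean close to that of granulosa-high spots (1.74 and 1.72 percentage points). Their share was 13.4, 11.1, 7.46 and 10.1% in young sections 1 to 4 and 10.1, 10.4 and 7.62% in aged sections 1, 2 and 4, against 9.86, 10.3, 5.55, 7.99, 9.10, 8.95 and 6.11% in the rest of the same sections. Aged section 3 had 7 such spots and was left out by the minimum of 10. The share was higher in 7 of 7 sections, by 1.74 ± 0.905 points (SD, n = 7), and these spots were deeper in 7 of 7, at 1.06 to 2.05 times the median UMIs of the rest. Their mitochondrial share was higher in 5 of 7 sections, at a mean of 1.98% against 1.34%. The part of depth and of mitochondrial RNA was not tested.

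Here 19 of 42 members rose and 0 fell, where 6.52% of 13675 genes rose and 5.83% fell (edgeR), and the median of the 42 was 0.28 (log2). The proteins of the stalk, which recruit elongation factors to the ribosome, all rose: Rplp1 by 0.51, Rplp2 by 0.41 and Rplp0 by 0.38. Rplp1 (chromosome 9, 61913284 to 61914542, minus strand) had 4769, 4546, 2808 and 4675 CPM in surface epithelium-high spots of young sections and 3826, 5115 and 2983 in those of aged sections 1, 2 and 4. The rest had 3133, 3604, 1661 and 2622 in young and 3358, 3719 and 1965 in aged sections. Each section's surface epithelium-high spots were above its rest, and the difference was 0.51 ± 0.11 (SE; adjusted p = 0.00718, edgeR). The largest rise was that of Rps27, with 697, 608, 745 and 403 CPM in the young and 702, 788 and 290 in the aged sections, against 517, 416, 325, 148, 667, 464 and 122 in the rest. Its log2 fold change was 0.78 ± 0.15 (adjusted p = 0.00404, edgeR), and it was higher in 7 of 7 sections, by little in aged section 1. Rps15 (chromosome 10, 80292453 to 80294114, plus strand), whose tail reaches toward the decoding centre, rose by 0.48, as did Rps12 by 0.45, Rps16 by 0.45 and Rpl14 by 0.43. The paralog Rps27rt also rose, by 0.43.

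The count of 19 fell to 5 without young section 3, to 7 without young section 1 or 4, to 8 without aged section 4 and to 9 without aged section 2. Rps27, Rplp1, Rps15, Rps16 and Rpl14 passed the threshold in every such fit, and Rps12 in 6 of 7. The rise did not extend to the genes that build ribosomes: of 20 biogenesis genes 0 rose and 1, Nop10, fell (-0.28), and the median of that list was 0.01. Of the 38 other cytosolic ribosomal protein genes 15 rose.

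**Figure D2:**
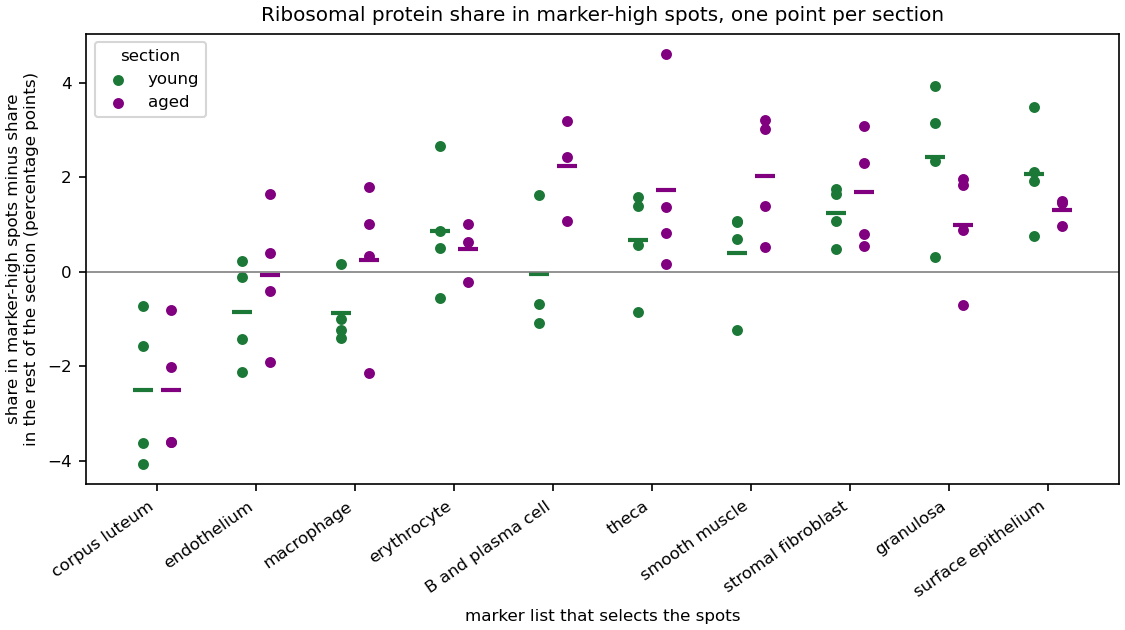
For each marker list (x axis), the share of UMIs in the 42 genes in marker-high spots minus that in the rest of the section (y axis, percentage points), with 1 point per section in green for young and purple for aged, and bars at the means. Corpus luteum-high spots are below 0 in 8 of 8 sections, and stromal fibroblast-high spots in 8 of 8 and surface epithelium-high spots in 7 of 7 sections are above it.

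Granulosa-high spots had a higher share in 7 of 8 sections, by 1.72 ± 1.51 points (SD, n = 8), yet the pattern by gene was another one. The share was 12.3, 13.9, 6.003 and 11.05% in young sections 1 to 4 against 9.93, 9.96, 5.69 and 7.91% in the rest, and 8.58, 10.8, 9.45 and 7.84% in aged sections 1 to 4 against 9.29, 8.87, 8.56 and 6.01%. Aged section 1 alone ran the other way. Granulosa-high spots were deeper than the rest in 8 of 8 sections, at 1.04 to 1.79 times its median UMIs, and the part of depth was not tested. Of the 42 genes 7 rose and 0 fell, near the 18.4% of 13145 genes that rose, so that the count says nothing particular to the members. Rpl4 (chromosome 9, 64173375 to 64178666, plus strand), which lines the exit tunnel of the large subunit, had 5237, 3676, 2080 and 4136 CPM in granulosa-high spots of young sections and 2639, 2472, 2884 and 4005 in those of aged sections. The rest had 3386, 2174, 1992 and 2437 CPM in young and 2214, 1806, 2304 and 1765 in aged sections. It was higher in 8 of 8, by 0.50 ± 0.13 (SE; adjusted p = 0.00706, edgeR), and passed with any section left out. Rpl7 rose by 0.36, Rpl28 by 0.31 and Rpl11, which with Rpl5 carries the 5S RNA and can bind Mdm2, by 0.31, and each of these lost the call without some sections. The 3 stalk genes did not pass, with Rplp1 at -0.00, Rplp2 at 0.05 and Rplp0 at 0.06. The 7 rises became 1 without young section 4, 2 without young section 1 or 2, 4 without aged section 4, 14 without aged section 1 and 15 without young section 3.

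Granulosa-high spots differed from surface epithelium-high spots in the machinery around the ribosome. Of the 20 biogenesis genes 12 rose and 1, Bop1, fell, with Npm1 at 0.74, Nop58 at 0.64, Nop56 at 0.64, the pseudouridine synthase Dkc1 at 0.59 and nucleolin (Ncl) at 0.45. Of 8 noncoding host genes of small nucleolar RNAs, several of which carry TOP tracts, 5 rose, led by Epb41l4aos at 0.61 and Snhg6 at 0.54. Of 10 genes for RNA polymerase I and its factors 3 rose, with Polr1b at 0.57, Polr1a at 0.46 and Taf1d at 0.45. Of the 20 mitochondrial ribosome genes 3 rose and 5 fell.

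The 2 kinds of spots were then compared directly in 7 sections, leaving out spots in both; this comparison and the next were added after the results above had been seen. Of the 42 members 2 were higher in granulosa-high and 6 in surface epithelium-high spots (edgeR, adjusted p under 0.05), with 11.3 and 13.7% of 11049 genes called in these directions. The share of members called is thus close to that of all genes, and what the comparison adds is the direction of single members. Rpl4 was higher in granulosa-high spots by 0.64 ± 0.16 (adjusted p = 0.00854), and Rpl22, an RNA-binding protein of the large subunit with the paralog Rpl22l1, by 0.46 ± 0.15 (adjusted p = 0.0423). Rps27 was lower there by -0.89 ± 0.21 (adjusted p = 0.00731), Rplp1 by -0.51, Rps16, Rpl19 and Rps14 by -0.48 each and Rps15 by -0.43. Rpl4 and Rps27 passed in each of the 7 fits that leave out a section. The counts moved between 1 and 4 for members higher and between 1 and 8 for members lower, so that the other 6 genes depend on single sections. Of the 20 biogenesis genes 8 were higher in granulosa-high spots and 0 lower. The summed share of the members had no common direction here. It was 13.9% in granulosa-high against 11.1% in surface epithelium-high spots of young section 2, but 12.1 against 13.3% in young section 1.

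**Figure D3:**
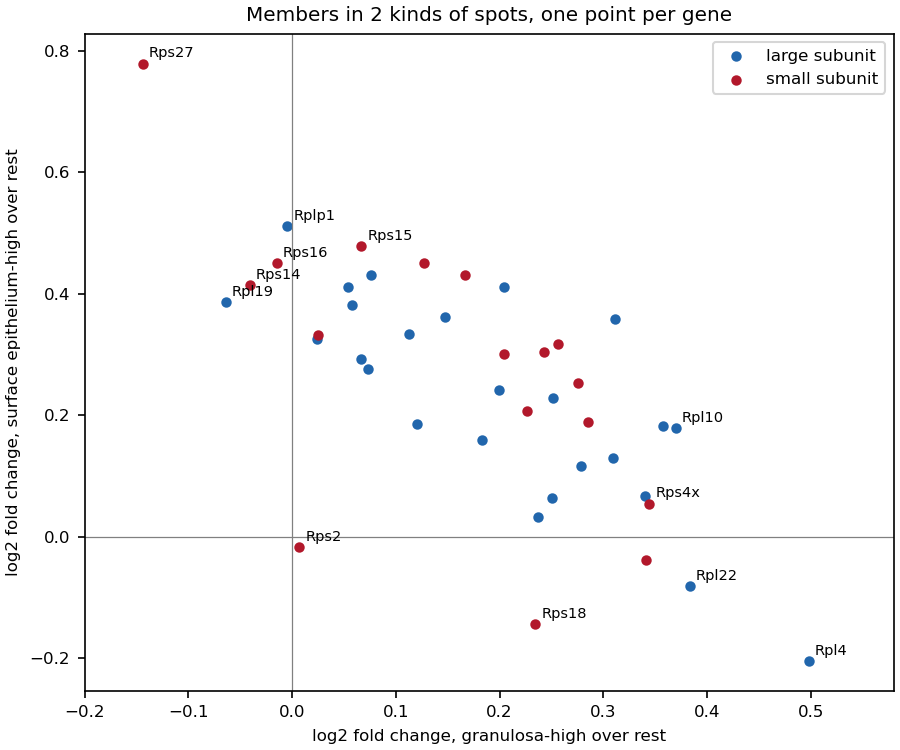
Each point is a member gene, blue for the large and red for the small subunit, by its log2 fold change in granulosa-high spots (x axis) and in surface epithelium-high spots (y axis), each against the rest of the same sections, so that the axes share most of their comparison spots. Rpl4 is at 0.50 and -0.20 and Rps27 at -0.14 and 0.78, at opposite corners, and Rplp1 is at -0.00 and 0.51.

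Against corpus luteum-high spots, granulosa-high spots had 24 members higher and 0 lower, with 20.2% of 11718 genes higher, and a median of 0.47 over the 42. Rpl4 led at 0.77 ± 0.19 (adjusted p = 0.00533, edgeR). Without young section 4 the count was 11, and library-size scaling, which moved the median of all genes to 0.17 and the split of all genes to 3363 higher and 1649 lower, gave 41. Surface epithelium-high spots had 23 members higher and 0 lower, with 13.6% of 12017 genes higher and a median of 0.54 over the 42. Rps27 led at 1.10 ± 0.22 (adjusted p = 0.00344, edgeR) and Rps15 followed at 0.82 ± 0.13. With a section left out this count was 19 to 27. With library-size scaling the median over all genes was 0.18 here, with 2337 higher and 959 lower, and gave 33 members.

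Stromal fibroblast-high spots, marked by collagens, decorin and lumican, showed a small and even rise. Their share was higher in 8 of 8 sections, by 1.46 ± 0.916 points (SD, n = 8), and 42 of 42 fold changes were positive with a median of 0.14 (log2). Of the members 7 rose and 0 fell, with 8.63% of 12891 genes higher (edgeR). Rps20, a small-subunit protein, led: it had 6339, 5773, 2592 and 4813 CPM in stromal fibroblast-high spots of young sections and 5151, 5701, 3834 and 4965 in those of aged ones. The rest had 5008, 5066, 2239 and 3988 in young and 4415, 3924, 3387 and 2920 in aged sections. It was higher in each of the 8, by 0.25 ± 0.06 (SE; adjusted p = 0.00815, edgeR). Rpl13 rose by 0.24, Rps12 by 0.22, Rps15 by 0.21, Rpl18 by 0.21, Rps3, which lies at the mRNA entry, by 0.20, and Rpl8 was the remaining call. Rps20 and Rpl13 passed whichever section was left out. The count was 2 without young section 4 and 4 without young section 2 or aged section 2. Library-size scaling gave 25, with 1607 of 12891 genes higher in place of 1113. These spots were deeper than the rest in 3 of 8 sections, unlike those of the surface epithelium list.

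In erythrocyte-high spots, marked by globin genes, Rps27 and Rps14 led. Of 42 members 6 rose and 0 fell where 0.418% of 13392 genes rose (edgeR), and the summed share was higher in 5 of 7 sections. Rps27 was again highest in fold change: 862, 594, 569 and 422 CPM in young sections and 1071, 671 and 143 in aged sections 1, 2 and 4, against 497, 417, 354, 161, 642, 470 and 131 in the rest. The difference was 0.78 ± 0.11 (SE; adjusted p = 0.000519, edgeR), higher in 7 of 7. Rps14 rose by 0.49 and kept its call in 5 of 7 fits with a section left out. The stalk genes Rplp1, Rplp0 and Rplp2 rose by 0.46, 0.43 and 0.41, with the call kept in 3, 3 and 2 of the 7 fits, and Rpl32 rose by 0.40. Rps27 passed whichever section was left out, but the count was 1 without young section 2 or aged section 1, 2 without aged section 2 and 3 without young section 1 or 3. The mitochondrial share was higher in these spots in 7 of 7 sections, at a mean of 2.40% against 1.31%, and its part in the result was not tested.

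The other lists gave few or no calls. The summed share was higher in 7 of 8 sections in theca-high spots (1.21 ± 1.59 points, SD) and in smooth muscle-high spots (1.22 ± 1.42). It was higher in 3 of 8 in endothelium-high (-0.46 ± 1.28) and 4 of 8 in macrophage-high spots (-0.31 ± 1.35). In B and plasma cell-high spots it was higher in 4 of 6 (1.09 ± 1.69). In smooth muscle-high spots 2 members rose, Rpl18 by 0.32 and Rps3 by 0.29, with 10.7% of all genes higher and 22.4% changed in either direction (edgeR). In theca-high spots 0 of 42 passed in either direction (3 at an unadjusted p under 0.05, 1 by DESeq2), with 5.87% of genes higher. In endothelium-high spots 0 passed although 39 of 42 values were negative (17 unadjusted, 3 lower by DESeq2), with 7.22% of genes higher and 5.88% lower, and 7 were lower without aged section 2. In macrophage-high spots 0 passed (0 unadjusted, 0 by DESeq2), with 4.37% of genes higher, 3.73% lower and 8.1% in either direction. In B and plasma cell-high spots 0 passed (15 unadjusted, 3 by DESeq2), with 0.0819% of genes higher. Over all genes, those at an unadjusted p under 0.05 numbered 3507 of 12864 (theca) and 3461 of 13080 (endothelium). They numbered 2802 of 12929 (macrophage) and 1554 of 13424 (B and plasma cell). In smooth muscle-high spots the 2 rises became 13 without young section 1, 1 without young section 2 and 0 without any of 5 other sections.

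**Figure D4:**
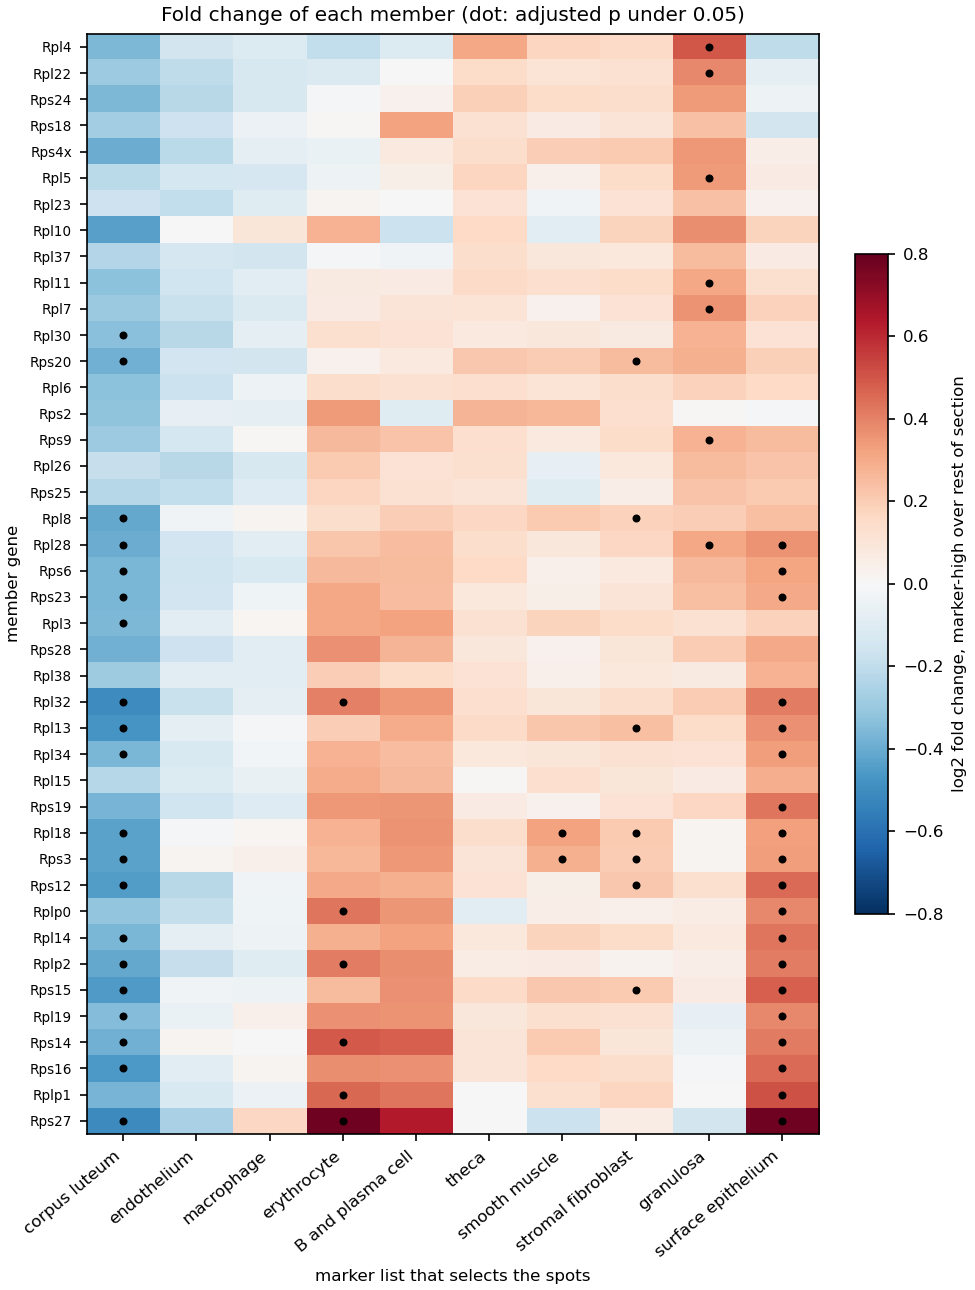
Log2 fold change of each of the 42 genes (y axis) in marker-high spots against the rest of the section for 10 marker lists (x axis), red for higher and blue for lower, with colours ending at -0.8 and 0.8. Dots mark an adjusted p under 0.05: 20 in the corpus luteum column and 19 in the surface epithelium column.

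Oocyte-high spots met the minimum in 3 young and 2 aged sections, so that no test was run. Oocytes store ribosomes and messages for the embryo. The share was 12.0, 12.1 and 10.1% in oocyte-high spots of young sections 1, 2 and 4 and 13.3 and 11.3% in those of aged sections 2 and 3, against 9.96, 10.2, 8.06, 8.96 and 8.42% in the rest. Each of the 5 was higher. Of the 255 oocyte-high spots over all sections 21.2% were also granulosa-high and 18.0% also surface epithelium-high.

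Between the ages, the members did not differ beyond the spread of the sections. The summed share was 8.62 ± 2.17% (SD, n = 4) in young and 8.27 ± 1.40% in aged sections. Without capture area 3 it was 9.59 ± 1.198% (SD, n = 3) and 8.14 ± 1.68%, a difference of -1.45 points in place of -0.352, and the ages still overlapped. Of the 42 genes 0 passed the test, as of all 14044 genes 0 passed (0%; edgeR quasi-likelihood test with Benjamini-Hochberg adjustment). At an unadjusted p under 0.05 there were 0 members and 392 genes, and DESeq2 called 0 members and 6 genes. Of the members 21 were higher and 21 lower in aged sections, the median was -0.00 (log2), and all 42 overlapped between the ages. Overlap was not counted over all genes, so that this count has no background. The largest values were those of Rps27 (0.30 ± 0.49, SE), Rpl10 (0.29 ± 0.30), Rps19 (0.25 ± 0.31), which is mutated in Diamond-Blackfan anaemia, Rps25 (0.21 ± 0.26) and Rps28 (0.20 ± 0.25). The lowest were those of Rps2 (-0.45 ± 0.35), the X-linked Rps4x (-0.41 ± 0.43), Rps24 (-0.36 ± 0.40), Rpl4 (-0.31 ± 0.26), Rpl22 (-0.29 ± 0.33) and Rpl8 (-0.22 ± 0.34), with adjusted p-values of 1.00 throughout. Between them lay Rps6 at 0.11, Rplp1 at 0.11, Rpl19 at 0.10, Rplp0 at 0.07, Rplp2 at 0.00, Rpl5 at -0.17 and Rpl37 at -0.17. Without capture area 3, 4 of the 42 were higher in aged sections and the median was -0.16, again with 0 passing. Simulated differences between 4 and 4 sections were found for 17 of 67 genes at 1.5-fold and 66 of 67 at 2-fold. The simulated spread between sections was a fixed value and not that of the members, whose SE reached 0.49 (Rps27). The simulation therefore cannot tell how large a change of these members could be missed.

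Rps4x shows how wide the sections lay: 3735, 3905, 1323 and 2135 CPM in young sections 1 to 4 and 2380, 2670, 1715 and 1588 in aged sections. The highest and the lowest values were both in young sections. Within the marker-high spots of each of the 10 lists, 0 members passed between the ages (edgeR; 0 to 3 at an unadjusted p under 0.05; 0% of all genes in each list). With the capture area as a block 0 members passed again, but 11 had an unadjusted p under 0.05 in smooth muscle-high spots, against 3 without the block, and 10 in macrophage-high spots, against 1. Over all genes the numbers in smooth muscle-high spots were 519 of 9598 with the block and 403 of 8556 without it. In macrophage-high spots they were 555 of 10128 and 309 of 9187. Members with values above 0 numbered 1 of 42 in granulosa-high and 1 of 42 in surface epithelium-high spots, but 38 of 42 in smooth muscle-high and 34 of 42 in theca-high spots. They numbered 8 in corpus luteum-high, 24 in stromal fibroblast-high, 32 in endothelium-high and 34 in macrophage-high spots. Most members vary together, so that these are not counts of separate observations, and the share of all genes above 0 was not counted. Whether the age difference differs between these kinds of spots was not tested.

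The makeup of the set gave a narrower picture than its level. The large subunit held 64.8 ± 0.999% of the members' UMIs in young and 64.7 ± 1.15% in aged sections, and 64.5 and 64.7% without capture area 3. Rplp0, Rplp1 and Rplp2 together held 6.04, 6.30, 5.90 and 6.51% of the members' UMIs in young sections 1 to 4 and 6.86, 7.03, 7.003 and 6.53% in aged sections 1 to 4. The aged value was higher in each of the 4 capture areas, by little in area 4, and the groups did not overlap, with 6.51 and 6.53% as the nearest values. How many single members or other groups of members would separate the ages on this measure was not counted. The lack of overlap thus has no background and is not shown to be particular to the stalk. Without area 3 the means were 6.28 ± 0.237% in young and 6.81 ± 0.255% in aged sections (SD, n = 3). This rests on the age labels: area 3 held the lowest young value, and with its ages exchanged the groups would overlap. None of the 3 genes differed by the test above (0% of genes called), and their levels overlapped between the ages.

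**Figure D5:**
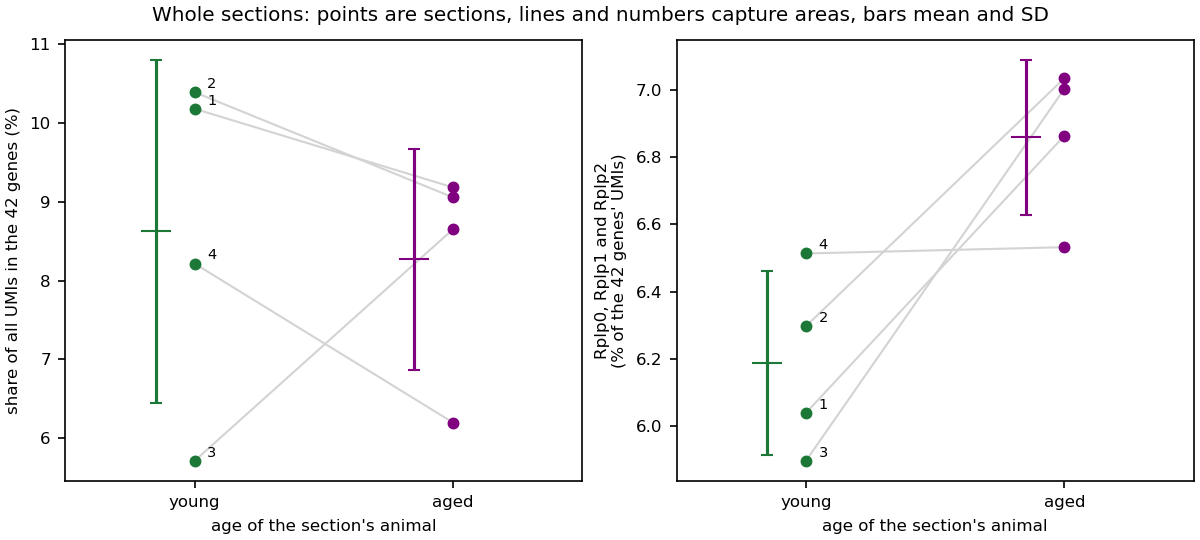
Left, the share of all UMIs in the 42 genes (%) and right, the share of the members' own UMIs held by Rplp0, Rplp1 and Rplp2 (%), in young and aged sections (x axis); points are sections, grey lines join the sections of an area, numbered beside the young point, and bars are mean and SD (n = 4). On the left the ages overlap, at 8.62 and 8.27% on average, and on the right all aged points are above the young ones, by 6.53 against 6.51% at the nearest, which would not hold with the ages of area 3 exchanged. How many other members separate the ages in this way was not counted. The y axes do not start at 0.

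Sections that shared a capture area shared a profile of members. Taken as deviations of log2 CPM from the mean of the sections of like age, the young and aged sections of areas 1 to 4 correlated over the 42 genes with r of 0.738, 0.870, 0.822 and 0.683, and the 12 pairs from different areas ran from -0.728 to 0.0969. The deviations of the 4 sections of an age sum to 0, so that positive values within areas force negative ones between areas, and the latter are no separate evidence. Without Rps2, Rps18 and Rpl10 the values within areas were 0.678, 0.883, 0.746 and 0.795. Spearman's rho was 0.640, 0.866, 0.748 and 0.190, so that area 4 rests on a few genes; pairs from different areas reached 0.392. Over 14348 genes of the tables, r within areas was 0.0617, 0.149, -0.211 and 0.213, and up to 0.230 between areas. Genes are not independent replicates, and sections of an area share the slide surface and library preparation, so that these are descriptions.

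Rps27 and Rps2 were 2 members that stood out in both sections of an area. Leaving out Rps2 with Rps18 and Rpl10 kept r within areas at 0.678 to 0.883, and r without Rps27 was not computed. Rps27 was lowest in the sections of area 4, at 175 CPM in the young and 132 in the aged one, against 362 to 533 in the other young and 487 to 670 in the other aged sections. Rps2, a small-subunit protein near the mRNA entry, was highest in those of area 1, at 43.4 and 34.9 CPM, against 19.7 to 26.3 in the other young and 13.3 to 18.7 in the other aged sections. The 2 genes thus followed the capture area more than the age. With the area as a block, Rps2 was the only member at an unadjusted p under 0.05, at -0.47 ± 0.17 (adjusted p = 1.00, edgeR).

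Across the spots of a section most members rose and fell with the others. The Spearman correlation of a member's counts per 10000 with the summed share of the other 41, as a median over 8 sections, was highest for Rpl32 (0.837), Rpl13 (0.822) and Rpl28 (0.816). It was lowest for the sparse Rps18 (0.102), Rps2 (0.0995) and Rpl10 (0.0875). Among abundant members Rpl4 stood apart at 0.215, followed by Rpl5 at 0.447, Rpl22 at 0.492 and Rps27 at 0.559.

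The same measure over the 38 other cytosolic ribosomal protein genes, summed, was 0.906 to 0.979 in the 8 sections, so that the 42 stand for the whole set. With the UMIs of a spot the share correlated at -0.451 to 0.256, with no common direction, and with the mitochondrial share at 0.218 to 0.735. These share a denominator and a library and have no test.

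Among 3642 genes with a mean of at least 1 UMI per spot outside the ribosomal protein lists, those most like the members' share were Rack1 (median rho 0.699), a protein bound to the small subunit, and the elongation factor Eef1a1 (0.697). Tpt1 (0.616), Eef1b2 (0.608), Ptma (0.545), Npm1 (0.536), the predicted gene Gm10260 (0.509) and Inha (0.478), which encodes the inhibin alpha subunit, followed. Inha was uneven, at 0.818 in young section 2 and -0.153 in aged section 1. The most opposed genes were Cyp11a1 (-0.728), which makes pregnenolone from cholesterol, the lysosomal Psap (-0.639), the cholesterol carrier Star (-0.638) and Sfrp4 (-0.625), a marker of the corpus luteum list. Of the 18 translation factors 9 were among the 100 most similar genes, with a list median of 0.253 against -0.03 over all 3642. The median was 0.113 for 8 biogenesis genes with enough counts and 0.0102 for 18 of the mitochondrial ribosome.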

How the data were processed

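The authors deposited UMI counts per gene and spot for each capture area, not normalized, as their whole numbers show. The mouse build mm10 and Space Ranger 1.2.1 are named in the submitters' processing notes. Annotation and strand handling are not given in the sources used. The deposited position files gave array and pixel positions, and the image scale files were not used.

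The tables held 4191 of the 4263 spots over tissue. Spots were assigned to sections by the sides in the labels, cutting at the broadest gap within the central 60% of positions. Low pixel rows counted as top and low pixel columns as left. If an image is turned relative to the labels, the ages of that area are exchanged. Spots under 500 UMIs (18) entered section sums only. Counts were summed per section, or per section and spot class, and tested with edgeR 4.0.16 (limma 3.58.1, R 4.3.3; quasi-likelihood test, TMM scaling, filterByExpr, Benjamini-Hochberg threshold of 0.05 over all genes tested). Age was the sole term between ages, and section was a factor between spot classes. CPM used total counts without TMM factors, so that CPM ratios can differ from fold changes. A spot's marker score was the mean natural log of 1 plus counts per 10000 over a list.

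Animals are the replicates, 4 per age per the labels. The capture area pairs the sections by the labels, and the check of that pairing over genes gave r of 0.0617, 0.149, -0.211 and 0.213 in areas 1 to 4. Gene positions came from GENCODE M21 (mm10), joined by symbol, and sequences from RefSeq. The script for the tests was checked on simulated counts: with 14213 genes in the age comparison, 66 of 66 changes of 4-fold were found with 5 false calls.

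The members and gene lists were chosen with earlier results of these data known. Named between the ages were the 8 largest and 8 lowest members plus Rplp0, Rplp1, Rplp2, Rps6, Rps4x and Rpl22. Named in each spot comparison were up to 6 members per direction past the threshold with the same direction in every section. Members given without a call, and those of the direct comparisons between kinds of spots, were named after their values were seen. Named for likeness were the 8 most and 4 least similar genes. Permutation tests of the summed share had been planned but are not given, since the share is a score over chosen members. Alternatives were RLE or library-size scaling, no filter, DESeq2 1.42.0, the capture area as a block, other spot thresholds, a k-means split of spots, and each section left out. Figures used matplotlib 3.10.9 (Python 3.11.15).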

Additional observations from a re-analysis of the deposited data

Results flagged for a closer look

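Of 54 groups of 4 sections or more, 2 held a section far from the others, where chance gives about 1 in 20. The members' share in smooth muscle-high spots minus that in the rest was -1.23 percentage points in young section 1, the sole young section below 0. Rpl19, a large-subunit protein that bridges the subunits, had 1864 CPM in aged section 4 against 2658 to 2784 in the other aged sections, in a section whose members' share was also low (6.20%).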

How the results depend on the processing

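With the capture area as a replicate block, 0 genes passed between the ages in whole sections, the members' median was 0.01 and the mean share difference was -0.352 points. The block changed no call of a member, though it raised the members at an unadjusted p under 0.05 to 11 in smooth muscle-high and 10 in macrophage-high spots. Of all genes, 519 of 9598 and 555 of 10128 had such a p in these fits. It did call genes between the ages in some marker-high spots (90 surface epithelium, 207 B and plasma cell, 4 smooth muscle, 2 erythrocyte, 1 theca), none of them a member, where the fit without it called 0. DESeq2 called 6 genes between the ages.

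In the comparison of marker-high spots and rest, the mean difference of the summed share kept its sign with each section left out. Single sections went both ways in some lists, with 4 higher and 4 lower for macrophage, 3 and 5 for endothelium and 4 and 2 for B and plasma cell. For these lists the sign of the mean is no common direction. The counts of members called moved more, and the cause was not tested. With the top 5% of spots the counts were 1 higher in granulosa-high, 1 higher in theca-high, 31 lower in corpus luteum-high, 11 higher in stromal fibroblast-high, 1 lower in endothelium-high and 13 higher in erythrocyte-high spots. Of all genes, 2161 of 12812 (granulosa), 470 of 12608 (theca) and 882 of 12999 (stromal fibroblast) were higher in these fits. Lower were 1558 of 12843 (corpus luteum) and 740 of 12821 (endothelium). With the top 20% they were 12 (granulosa), 4 (stromal fibroblast) and 1 (erythrocyte), with 2324 of 13919 genes higher for granulosa and 1507 of 13859 for stromal fibroblast. Library size alone gave 19 (granulosa), 2 (theca), 41 lower (corpus luteum), 25 (stromal fibroblast), 10 (smooth muscle), 3 (erythrocyte) and 41 for granulosa-high against corpus luteum-high. This scaling also moved all genes: 2688 of 13145 rose for granulosa and 1040 of 12864 for theca, in place of 2418 and 755. For stromal fibroblast 1607 of 12891 rose in place of 1113, and for smooth muscle 1914 of 13063 in place of 1395. For corpus luteum 3088 of 13138 fell in place of 1941. DESeq2 gave 11 (granulosa), 1 (theca), 14 (stromal fibroblast), 3 lower (endothelium), 3 (B and plasma cell) and 25 (erythrocyte), and RLE scaling 1 (theca). Of all 22696 genes DESeq2 had 2221 (granulosa), 685 (theca) and 974 (stromal fibroblast) higher and 451 (endothelium) lower. RLE scaling had 786 of 12864 higher (theca). For the erythrocyte counts under these alternatives, and the B and plasma cell count by DESeq2, the number of all genes called is not given. These counts thus have no background and say nothing particular to the members.

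With a section left out, the ranges were 1 to 15 (granulosa), 0 to 1 (theca), 10 to 28 lower (corpus luteum), 2 to 8 (stromal fibroblast), 5 to 19 (surface epithelium), 0 to 7 lower (endothelium), 0 to 13 (smooth muscle), 0 to 1 (B and plasma cell) and 1 to 8 (erythrocyte). They were 11 to 36 for granulosa-high against corpus luteum-high, and 1 to 4 higher and 1 to 8 lower for granulosa-high against surface epithelium-high. The number of all genes called is not given for any fit with a section left out. A change of these counts thus cannot be told apart from a change over all genes. Between the ages some values near 0 changed sign without capture area 3: Rps25 (-0.0325), Rps6 (-0.127), Rplp1 (-0.0427), Rpl19 (-0.0136), Rplp0 (-0.0799) and Rplp2 (-0.164). Rplp2 was also -0.0231 without the filter and -0.000261 with DESeq2. Leaving out single sections gave -0.0200 to 0.253 for Rps6, -0.0850 to 0.319 for Rplp1, -0.0491 to 0.221 for Rpl19, -0.412 to 0.0192 for Rpl8, -0.118 to 0.245 for Rplp0 and -0.167 to 0.0797 for Rplp2. The share difference between the ages ran from -1.32 to 0.338 points with a section left out and was -1.45 without area 3, chosen after seeing the data, and the members' median from -0.17 to 0.13.

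Depth limits the 3 sparse members most: Rps2 had 52 UMIs and Rpl10 84 in their thinnest sections.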
